A study of Mus musculus with 24 samples.

Results

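Histone-modifying enzymes add methyl or acetyl groups to histone tails or take them off, and their mRNAs were examined here for sites at which bound proteins shielded the RNA from nuclease in differentiating erythroid cells. The genes were taken from the GENCODE M21 annotation of the mouse genome (build mm10) by symbol alone. Protein-coding genes whose symbols begin with Kmt or Setd (methyltransferases), Kdm (demethylases), Kat and a digit (acetyltransferases) or Hdac (deacetylases) were kept. This gave 55 of 21938 protein-coding genes, namely 18 methyltransferases, 18 demethylases, 8 acetyltransferases and 11 deacetylases. The methyltransferases and demethylases together are called methylation enzymes (36 genes), and the acetyltransferases and deacetylases are called acetylation enzymes (19 genes).

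The cells were MEL cells, a murine erythroleukemia line arrested at the proerythroblast stage, that were uninduced (day 0) or grown for 2 or 4 days with 2% DMSO, which starts erythroid differentiation. All cells were crosslinked with formaldehyde, and 2 biological replicates were prepared per day. Each was digested with an RNase specific to single-stranded RNA (ssRNase) or to double-stranded RNA (dsRNase), either with proteins in place or after their removal, which made 24 libraries in 12 groups of 2. A single transformed line with no culture kept uninduced at the later days was used, so time in culture and DMSO cannot be told apart.

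Enzymes that place a histone mark are called writers and those that remove it erasers. Methylation can mark active or silent chromatin, depending on the lysine, while acetylation of histone tails goes with open chromatin. During terminal erythroid maturation the nucleus condenses and most genes are shut down, a process in which histone deacetylation takes part. The mRNAs of these enzymes are themselves bound by proteins in the nucleus and the cytoplasm, during splicing, export, translation and decay.

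A protein-protected site (PPS) is a stretch of RNA with more reads after digestion with proteins in place than after digestion of protein-free RNA. The authors deposited 1 list of PPSs per day, and a name field in it tells which RNase and replicate gave each call, so that 12 call sets (4 per day) could be told apart. PPSs of 20 to 40 nt, the size of ribosome footprints, were left out after the study's own practice, which kept 114907, 119487 and 122038 PPSs at days 0, 2 and 4. Read depth and RNA levels per library were not analysed here, so stronger protection and more RNA of a gene cannot be told apart in any value below. Replicate sets of a day share merged coordinates, so their spread understates the true one, and 2 against 2 replicates allow no exact p under 0.333. No p-value is therefore given.

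Call sets differed in size and strand. They held between 14832 PPSs (day 2 dsRNase replicate 2) and 73952 PPSs (day 2 ssRNase replicate 2). The plus strand held 66.9% of the PPSs of day 0 ssRNase replicate 2 and 43.1% of those of day 4 ssRNase replicate 2, against 50.3 to 52.0% in the other 10 call sets. From day 0 to day 4 this works towards lower values in plus-strand genes and higher values in minus-strand genes. Counts were therefore also made without the ssRNase calls of replicate 2 on any day, an alternative chosen after seeing the data. Of the 55 enzyme genes, 26 lie on the plus and 29 on the minus strand. The labelled cell type was checked against marker lists. Each of the 11 erythroid markers reported here held exonic PPSs at day 4, with Alas2, the first enzyme of erythroid heme synthesis, covered over 18.6% of its exonic nt at day 0 and 39.2% at day 4. The T cell, myeloid, liver and fibroblast markers Cd3e, Itgam, Mpo, Alb and Col1a1 were all at 0.

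Sequences of 6 PPSs are printed because the results below turn on them: an intronic site gained with DMSO, an intronic site lost, an intronic site held at all days, and the highest-scoring exonic site of day 0 and intronic sites of days 2 and 4. They are read from the mm10 genome on the gene's strand, 5′ to 3′. Capitals mark the bases also covered by a PPS on the other days named. In the Kmt5c site (chr7:4744952-4745129, plus strand, intron 6 of 8, day 4) 176 of 178 bases were also covered at day 2 and none at day 0. In the Hdac7 site (chr15:97832679-97832754, minus strand, intron 1 of 24, day 0) none of 76 bases was covered at day 2 or day 4. In the Hdac5 site (chr11:102208971-102209090, minus strand, intron 5 of 28, day 4) capitals mark the 104 of 120 bases covered at day 0. At day 2, 51 of its bases were covered. In the Kmt2d site (chr15:98850391-98850618, minus strand, coding sequence, day 0) capitals mark the 120 of 228 bases covered at all days. In the Setdb1 site (chr3:95335470-95335580, minus strand, intron 14 of 21, day 2) capitals mark the 108 of 111 bases covered at all days. In the Kmt2e site (chr5:23443278-23443385, plus strand, intron 1 of 26, day 4) capitals mark the 90 of 108 bases covered at day 0.
Kmt5c intron: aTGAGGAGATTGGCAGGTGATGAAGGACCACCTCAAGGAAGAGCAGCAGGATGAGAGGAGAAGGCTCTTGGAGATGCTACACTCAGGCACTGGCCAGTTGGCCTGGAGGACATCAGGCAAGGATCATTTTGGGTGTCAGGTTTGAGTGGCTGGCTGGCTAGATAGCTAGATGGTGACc
Hdac7 intron: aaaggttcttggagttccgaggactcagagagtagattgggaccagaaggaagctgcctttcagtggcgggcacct
Hdac5 intron: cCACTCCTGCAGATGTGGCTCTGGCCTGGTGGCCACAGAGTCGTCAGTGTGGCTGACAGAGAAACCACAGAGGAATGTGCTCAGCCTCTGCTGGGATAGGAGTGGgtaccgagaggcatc
Kmt2d coding sequence: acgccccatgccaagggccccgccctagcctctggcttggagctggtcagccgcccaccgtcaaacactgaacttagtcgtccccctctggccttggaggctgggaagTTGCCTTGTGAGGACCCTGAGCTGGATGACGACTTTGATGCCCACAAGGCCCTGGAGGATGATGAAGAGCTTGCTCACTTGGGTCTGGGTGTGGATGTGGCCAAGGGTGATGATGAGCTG
Setdb1 intron: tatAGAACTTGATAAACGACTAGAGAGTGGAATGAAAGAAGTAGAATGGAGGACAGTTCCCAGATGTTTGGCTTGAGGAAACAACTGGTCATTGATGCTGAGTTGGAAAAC
Kmt2e intron: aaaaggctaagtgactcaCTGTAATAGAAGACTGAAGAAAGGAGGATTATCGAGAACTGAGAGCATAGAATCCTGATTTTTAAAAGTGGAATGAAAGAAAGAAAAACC

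Exonic coverage, the percentage of all exonic nt of a gene that lay in a PPS on its strand, was examined first to see which enzyme mRNAs were protected at all. Of the 55 genes, 52 held an exonic PPS on some day and 49 on every day, and 9550 of all 21938 protein-coding genes held one on some day. At days 0, 2 and 4 the shares were 92.7%, 92.7% and 89.1% of the enzyme genes, against 38.4%, 39.6% and 37.3% of all genes. Neither Hdac9 and Hdac11, both deacetylases, nor the demethylase Kdm4d held a PPS of any kind. With PPSs of 20 to 40 nt counted, Hdac11 had 97 covered exonic nt at day 2 and 29 at day 4, and Hdac9 had 36 intronic nt at day 2, while Kdm4d stayed at 0. The demethylase Kdm8 held exonic PPSs only at day 0 (2.64%) and the methyltransferase Setd4 only at day 2 (0.874%), each in 1 replicate.

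Methyltransferase mRNAs were covered over the largest share of their length. The median over members of the mean of the 3 days was 15.5% for methyltransferases, 8.41% for demethylases, 8.06% for deacetylases and 7.63% for acetyltransferases, with members without a PPS counted as 0. Kmt2d, which with Kmt2c methylates histone H3 at enhancers, had the highest mean at 35.3%, and 156 of the 9550 protein-coding genes with an exonic PPS were above it. Setdb1, which silences endogenous retroviruses through histone H3 methylation, followed with 31.3%, and Kmt2c with 27.0%. Kmt2d and Setdb1 differed by less than their replicates at day 0, when Kmt2d had 22.6% and 25.2% and Setdb1 24.1% and 26.9%, but not at day 4, when Kmt2d had 39.9% and 37.4% and Setdb1 29.7% in both. The best covered demethylases were Kdm4a (26.1%), Kdm5c (21.5%) and Kdm3a (17.5%). Among acetylation enzymes the leaders were Kat6a (16.7%), Hdac7 (15.2%), Hdac1 (15.2%) and Hdac2 (11.7%), whose order by mean hides the fall of Hdac7 described below. Kat7 and Kat2a followed Kat6a among acetyltransferases, with 8.56% and 8.45%.

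**Figure D1:**
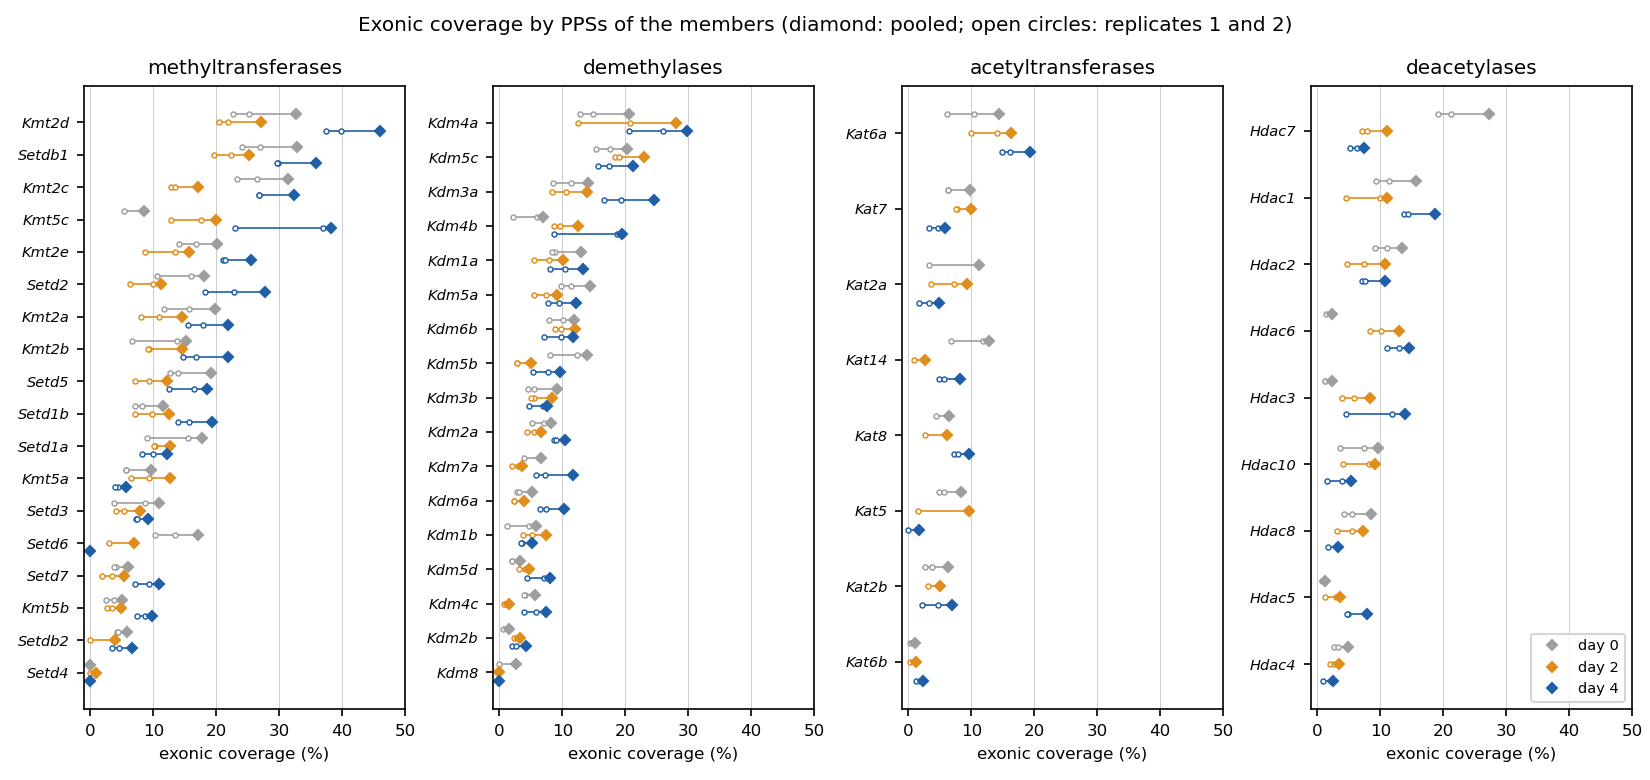
Exonic coverage (% of exonic nt inside a PPS, horizontal axis) of the 52 enzyme genes with an exonic PPS, in 1 panel per role, at day 0 (grey), day 2 (orange) and day 4 (blue). Diamonds are pooled values and open circles the 2 replicates. Kmt2d reaches 46.1% at day 4, Kmt5c moves from 8.52% to 38.3%, and Hdac7 moves from 27.2% to 7.36%.

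To find the genes whose coverage differed between day 0 and day 4, a gene was called when its pooled exonic coverage differed by 5 percentage points or more and had the same sign in every comparison of a day 4 replicate with a day 0 replicate (4 pairs). "Rose" and "fell" are written only of such calls. The limit applies to pooled values, each the union of 2 replicates, while a pair sets 1 replicate against 1. A pooled change can therefore lie outside the range over its pairs, as for Hdac6 and Hdac7. For Hdac5, Kdm6a and Hdac8 no single pair reached 5 points. Where 1 replicate is left out below, the union of 1 replicate is set against that of 2, which by construction lowers the coverage of that day. Coverage rose for 13 of the 52 enzyme genes (25%) and fell for 5 (9.62%), against 15.3% of all genes that rose and 14.6% that fell. The methylation enzymes accounted for 10 of the rises and 1 of the falls (28.6% and 2.86% of 35), and the acetylation enzymes for 3 rises and 4 falls (17.6% and 23.5% of 17). The median change was 2.12 points for methylation enzymes, with 1.70 to 3.23 over the 4 pairs, and 0 for all genes. For acetylation enzymes it was -2.27 points in the pooled lists, but only -1.19 to -0.390 over the pairs, and 0.208 with dsRNase calls alone. The difference between the families was not tested.

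The counts were also made by strand and by nuclease. Among plus-strand enzyme genes 6 of 25 rose and 1 fell (24% and 4%), against 12.3% and 17.2% of all plus-strand genes. Among minus-strand ones 7 of 27 rose and 4 fell (25.9% and 14.8%), against 18.4% and 11.8%. Without the ssRNase calls of replicate 2 on any day, and with the like-numbered pairs of replicates alone, 14 rose and 4 fell (13.9% and 12.6% of all genes). By nuclease, 10 rose and 3 fell with ssRNase calls alone (9.61% and 10.7% of all genes), and 13 rose and 4 fell with dsRNase calls alone (12.8% and 8.9%).

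**Figure D2:**
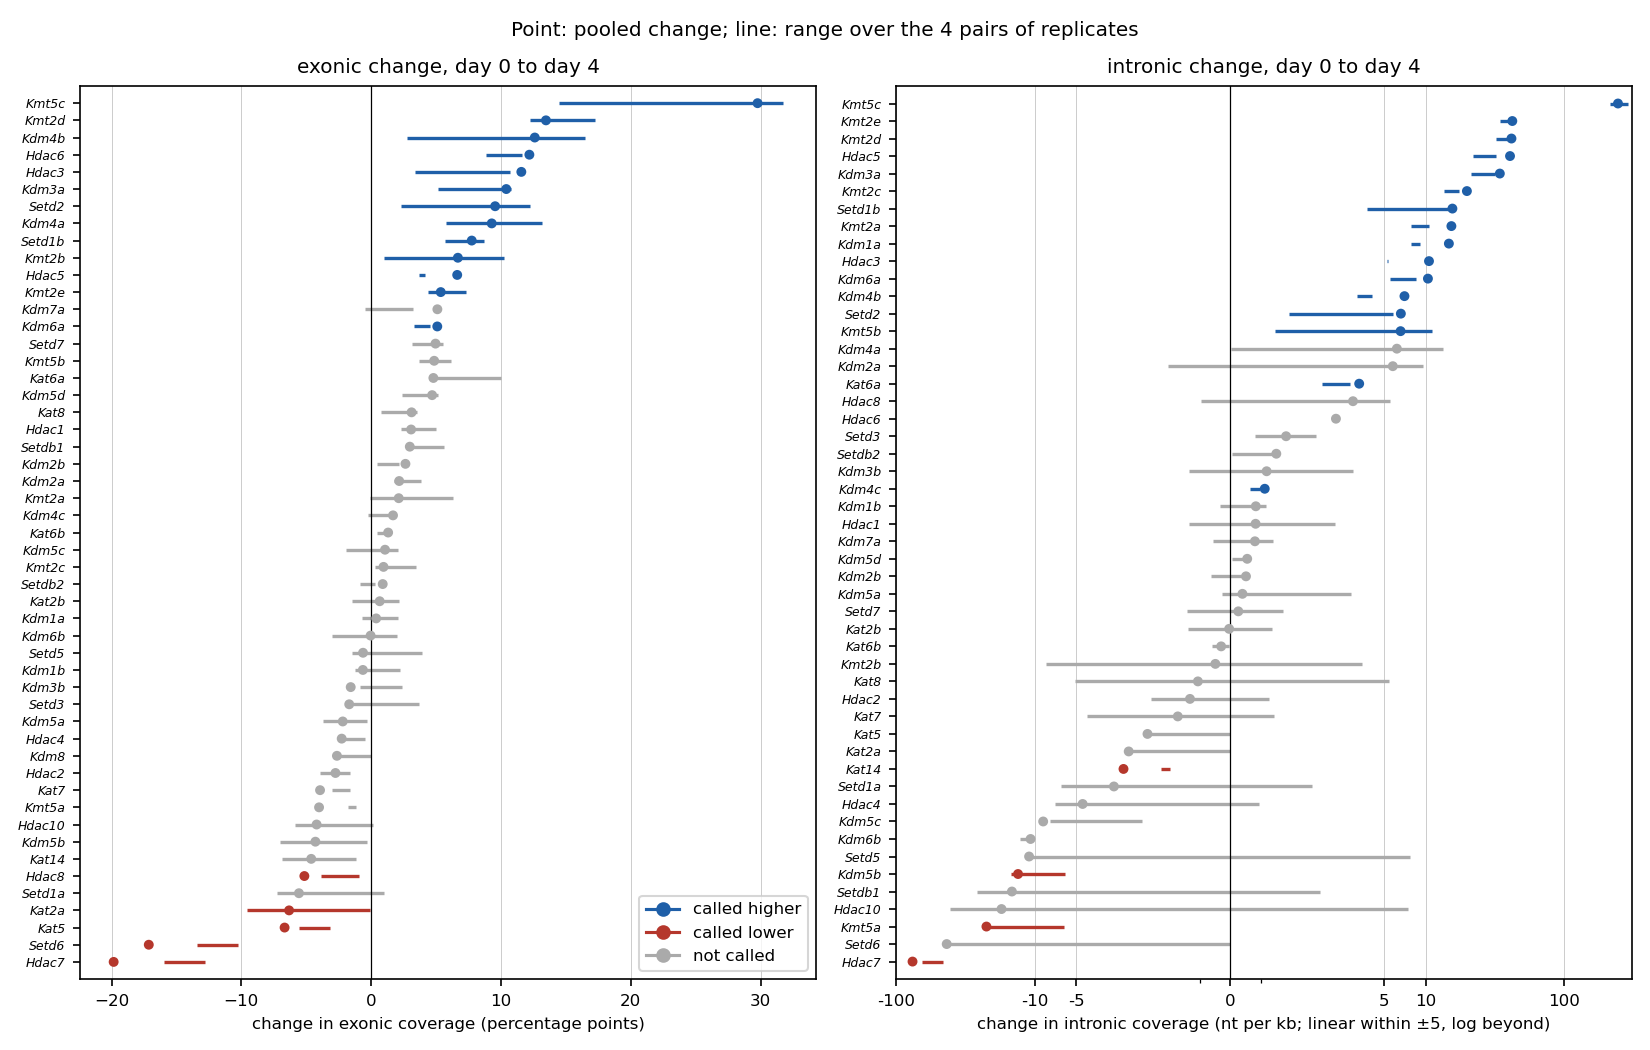
Change from day 0 to day 4 for each enzyme gene, in exonic coverage (left, percentage points) and in intronic coverage (right, covered nt per kb of intron, linear within 5 and logarithmic beyond). Points are pooled changes, lines span the 4 pairs of replicates, and colours mark genes called higher (blue), called lower (red) or not called (grey). A point can lie outside its line. Kmt5c lies at the top of the exonic panel with 29.8 points and Hdac7 at its foot with -19.8 points.

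Among methyltransferases, 6 of 18 rose (Kmt5c, Kmt2d, Setd2, Setd1b, Kmt2b and Kmt2e) and Setd6 alone fell. Kmt5c, which trimethylates histone H4 in heterochromatin, lies at chr7:4740115-4747514 on the plus strand (ENSMUSG00000059851.15). Its exonic coverage was 5.27% and 8.52% in the day 0 replicates, 17.5% and 12.7% at day 2, and 37.0% and 22.97% at day 4. The replicates of no day overlapped with those of another, and the order was day 0, day 2, day 4. The pooled change was 29.8 points (14.4 to 31.7 over the pairs), which put Kmt5c at the 99.4th percentile of all genes. It held in both nucleases: pooled ssRNase coverage went from 8.52% to 33.2%, and dsRNase coverage from 0 to 22.0%. Its PPSs numbered 5, 15 and 26 at days 0, 2 and 4.

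Kmt2d (chr15:98831669-98871204, minus strand, ENSMUSG00000048154.17) had 22.6% and 25.2% at day 0, 20.4% and 21.9% at day 2, and 39.9% and 37.4% at day 4. Both day 4 replicates were above the other 4 values, and the change from day 0 was 13.5 points (12.2 to 17.2). Its partner in enhancer methylation, Kmt2c, had 26.5% and 23.3% at day 0, a lower 12.8% and 13.5% at day 2, and 26.8% in both replicates at day 4. Both day 4 values were above those of day 0, but the pooled values, 31.5% and 32.4%, differed by less than 5 points and Kmt2c was not called. Setd2, which methylates histone H3 along transcribed genes, went from 15.9% and 10.6% to 22.8% and 18.3% (change 9.55 points, 2.33 to 12.2). Setd1b, a promoter methyltransferase, went from 7.03% and 8.21% to 15.7% and 13.9%, a rise of 7.75 points (5.68 to 8.66). Its paralog Setd1a was not called, with 17.7% at day 0 and 12.2% at day 4, and 3523 of its exonic nt are shared with another gene on the strand.

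The remaining rises were smaller. Kmt2b rose by 6.68 points, but by only 1.00 to 10.2 over the pairs, and Kmt2e by 5.36 (4.39 to 7.30). The rise of Kmt2e came from dsRNase calls, which went from 13.7% to 20.4%, while its ssRNase coverage was 16.2% and 15.5%. Setd6, which also methylates proteins other than histones, had no exonic PPS left at day 4. Its coverage was 13.5% and 10.2% in the day 0 replicates, 6.88% and 2.89% at day 2, and 0 in both at day 4. It is a short gene (chr8:95715881-95719010, plus strand), and its day 0 value rests on 4 exonic PPSs, of which 1 had calls of both replicates.

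Of the 17 demethylases with an exonic PPS, 4 rose (Kdm4b, Kdm3a, Kdm4a and Kdm6a) and 0 fell. Kdm4b and Kdm4a remove methyl groups from histone H3 lysines of silent chromatin and of gene bodies. Kdm4b had 2.17% and 5.92% at day 0 and 18.6% and 8.66% at day 4 (change 12.6 points, 2.74 to 16.4). Most of that came from day 4 replicate 1, without which the change was 1.74 points and no call was made. Kdm3a, a demethylase of repressive marks, had 8.53% and 11.5% at day 0 and 16.6% and 19.3% at day 4 (10.4 points, 5.18 to 10.8). Kdm4a went from 14.8% and 12.9% to 26.0% and 20.6% (9.29 points, 5.76 to 13.1). Kdm6a, which removes a Polycomb mark, went from 2.86% and 3.08% to 6.38% and 7.37%. In all of these the day 4 replicates lay above the day 0 replicates. Kdm5c, well covered throughout, had 20.2% at day 0, 23% at day 2 and 21.3% at day 4 and was not called in any exonic comparison.

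Of the 8 acetyltransferases, 0 rose and 2 fell. Kat5, the catalytic subunit of the TIP60 complex, had 4.90% and 5.59% at day 0 and 0 and 1.71% at day 4. Kat2a, the acetyltransferase of the SAGA complex, had 11.2% and 3.28% at day 0 and 3.22% and 1.64% at day 4. Its replicates of day 0 were far apart, and the 4 pairs ran from -9.54 to -0.0575 points. Without day 0 replicate 1 its change was 1.58 points and no call was made, but this sets 1 day 0 replicate against the union of 2 at day 4. Kat6a, which acetylates histone H3, had 6.10% and 10.3% at day 0 and 14.9% and 16.1% at day 4. Its pooled values, 14.5% and 19.3%, differed by less than 5 points and it was not called.

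The deacetylases moved both ways, with 3 of 9 that rose (Hdac6, Hdac3 and Hdac5) and 2 that fell (Hdac7 and Hdac8). Hdac7, a class IIa deacetylase that acts as a corepressor, lies at chr15:97792664-97844502 on the minus strand (ENSMUSG00000022475.19). Its coverage was 21.2% and 19.2% at day 0, 7.09% and 7.95% at day 2, and 6.37% and 5.21% at day 4. The fall of 19.8 points (-16.0 to -12.8 over the pairs) was present by day 2 and put Hdac7 at the 1.49th percentile of all genes. Pooled ssRNase coverage went from 24.1% to 7.36% and dsRNase coverage from 12.5% to 1.14%. Hdac7 lies on the strand on which the strand imbalance works towards higher values. So do Hdac8, Kat5 and Kat2a, which fell, and Kmt2d, Kmt2b, Kdm3a, Kdm4a, Hdac3, Hdac5 and Hdac6, which rose. The other called genes lie on the plus strand, and the part of the imbalance in single genes was not tested.

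Hdac6, mainly a tubulin deacetylase of the cytoplasm, had 2.30% and 1.31% at day 0, 10.1% and 8.30% at day 2, and 11.1% and 12.9% at day 4. The day 0 replicates lay below all others, and the rise of 12.2 points (8.82 to 11.6) was seen with ssRNase calls (2.30% to 10.5%) and dsRNase calls (0 to 10.7%). Hdac3, the catalytic subunit of the NCoR and SMRT corepressors, had 1.18% and 1.14% at day 0 and 11.8% and 4.56% at day 4. Without day 4 replicate 1 its change was 2.24 points and no call was made. Hdac5, the class IIa relative of Hdac7, went from 0.706% and 1.00% to 4.86% and 4.72%, opposite in direction to Hdac7. Hdac8 fell by 5.15 points (-3.89 to -0.930), and its change was 0.331 when calls of both replicates were required. Hdac1, a subunit of several corepressor complexes, was not called from day 0 to day 4, with 11.4% and 9.38% against 13.7% and 14.3%.

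Settings mattered unequally for these calls. Those of Kmt5c, Hdac6 and Hdac7 held under every alternative that was run. Of the 18 calls, 4 (these and that of Setd6) were made whichever replicate was left out, and 14 were not. Without day 4 replicate 1 the change was 4.82 points for Kmt2d, 1.74 for Kdm4b, 2.24 for Hdac3 and 0.0692 for Kdm4a, and without day 4 replicate 2 it was 2.52 for Kdm3a. The rises of Setd2, Setd1b, Kmt2b, Hdac5, Kmt2e and Kdm6a were not called without either day 4 replicate in turn, nor were the falls of Kat5 and Hdac8 without either day 0 replicate, and the change of Kmt2b was -0.386 without day 4 replicate 2. The lower coverage that leaving out a replicate brings by construction was not separated from these losses.

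**Figure D3:**
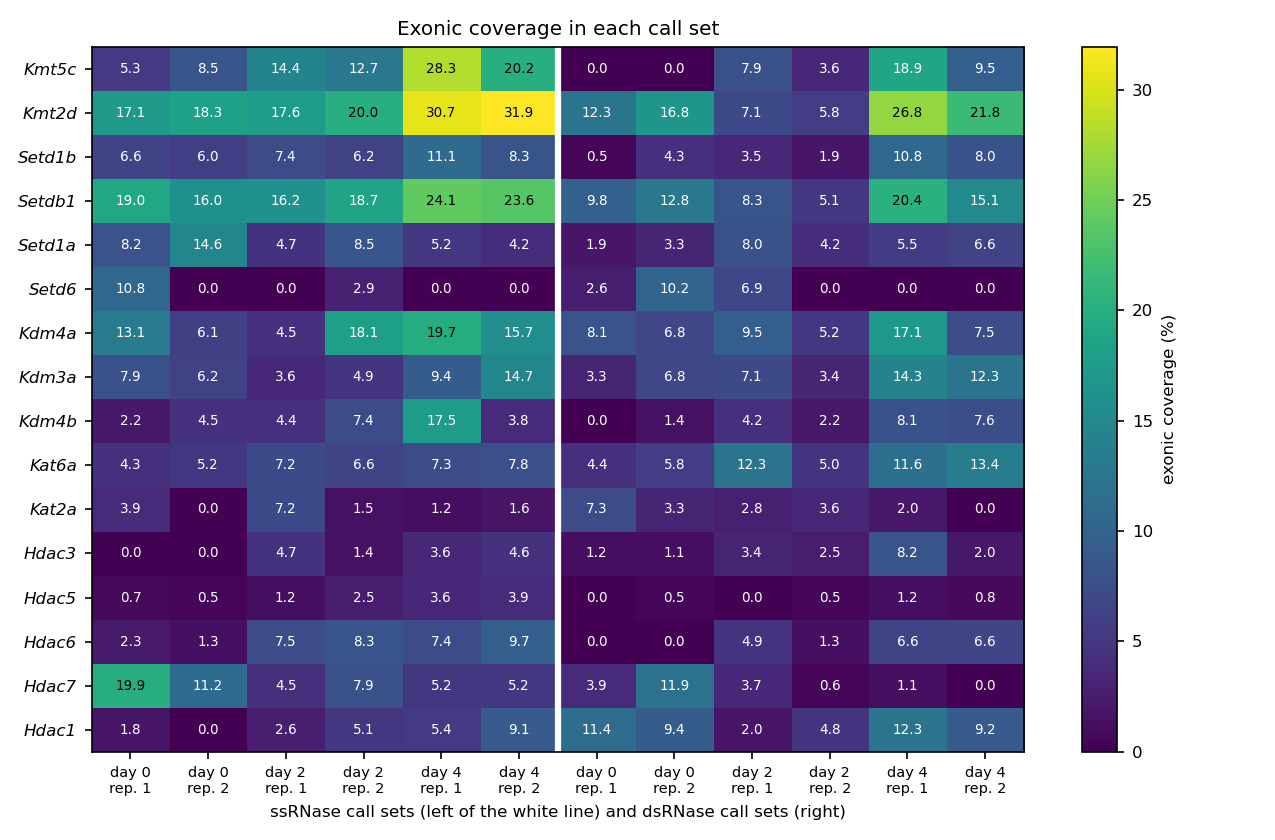
Exonic coverage (%, colour scale) of 16 enzyme genes in each of the 12 call sets. The ssRNase sets are on the left and the dsRNase sets on the right, each ordered by day and replicate. Kmt5c is at 0 in both day 0 dsRNase sets and at 9.52% or more in all day 4 sets, and Hdac7 is at 5.23% or less in all day 4 sets.

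Day 2 was not midway between day 0 and day 4. From day 0 to day 2, 4 enzyme genes rose and 11 fell (7.69% and 21.2%), against 7.7% and 17.2% of all genes, and from day 2 to day 4, 17 rose and 2 fell (32.7% and 3.85%), against 17.6% and 7.12%. Among the roles the methyltransferases led both steps. Related genes outside the set, given below, also fell more often than they rose at the first step and rose more often at the second. At the first step 1 of 18 rose and 7 fell (median -3.65 points), and at the second 11 rose and 2 fell (median 6.64). Kmt2c, Setdb1, Setd2, Kmt2d, Kmt2a and Setd5 fell and then rose. Kmt2c fell by 14.4 points (-13.7 to -9.84) and rose by 15.4 (13.3 to 14.01). Setdb1 fell by 7.76 points and rose by 10.7, and Kmt2a, the founding member of the family, fell by 5.17 and rose by 7.29. Among the rest, Kdm5b, a demethylase of promoters, fell by 8.90 points and Kat14 by 10.1 at the first step. Kmt5a, which monomethylates histone H4, fell by 6.91 points at the second. Hdac6, Kmt5c, Hdac3 and Kdm4b were the 4 that rose by day 2.

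The day 2 dsRNase call sets were the smallest of the experiment, and the nucleases differed at these steps. With dsRNase calls alone 3 rose and 8 fell from day 0 to day 2 (2.41% and 15.2% of all genes), and 17 rose and 0 fell from day 2 to day 4 (18.7% and 2.23%). With ssRNase calls alone the counts were 2 and 4 (8.18% and 7.39%), then 6 and 2 (6.65% and 8.1%). Of the 18 methyltransferases, 1 rose and 5 fell with dsRNase calls alone, then 10 rose and 0 fell. With ssRNase calls alone 1 methyltransferase rose and 1 fell, then 5 rose and 1 fell. By strand, 2 of 25 plus-strand enzyme genes rose and 6 fell at the first step (6.31% and 19.9% of plus-strand genes), and 2 of 27 minus-strand ones rose and 5 fell (9.13% and 14.3%). At the second step the counts were 8 and 2 on the plus strand (16% and 7.18%) and 9 and 0 on the minus strand (19.2% and 7.06%). The part of the call set sizes in these counts was not tested. Both steps share the day 2 libraries. Of the 15 calls from day 0 to day 2, 12 were not made when 1 replicate was left out, and those of Kmt5c (without day 2 replicate 1), Setd6 (without day 0 replicate 1), Kdm5b and Kat14 (both without day 0 replicate 2) were lost with that replicate alone. The others, lost with either replicate of a day, were Hdac3, Kdm4b, Kdm5a, Kmt2a, Kmt2d, Setd2, Setd5 and Setdb1. Of the falls at the first step, those of Kmt2d, Kmt2a, Setd2 and Setdb1 changed sign when 1 day 0 replicate was left out (4.49, 2.94, 0.679 and 1.007 points). These values set 1 day 0 replicate against the union of 2 at day 2, which by construction works against a fall. All 4 pairs of replicates were negative for each of these genes.

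Intronic coverage was examined next, since a large share of the PPSs lay outside exons. A gene was called when its covered intronic nt differed by 1.5-fold and 100 nt or more with all 4 pairs alike. Over the 4 days intronic coverage rose for 16 of the 50 enzyme genes with an intronic PPS (32%) and fell for 4 (8%), against 19.2% and 17.5% of all genes. Methylation enzymes gave 13 rises and 2 falls of 33, with 8 rises among 17 methyltransferases and 5 among 16 demethylases. Acetylation enzymes gave 3 rises (Hdac5, Hdac3 and Kat6a) and 2 falls (Hdac7 and Kat14) of 17. Summed over all enzyme genes, covered intronic nt per kb of intron were 9.05, 9.90 and 11.7 at days 0, 2 and 4. For methylation enzymes they were 12.5, 14.7 and 19.3, with replicates of 8.31 and 8.14 at day 0 and 13.9 and 13.6 at day 4. For acetylation enzymes they were 5.83, 5.404 and 4.53, with overlapping replicates of 4.67 and 3.08 at day 0 and 3.41 and 2.36 at day 4. Hdac7 weighed heavily in this family, with 4126 of its 11172 covered intronic nt at day 0 and 689 of 8685 at day 4. All 21938 protein-coding genes, with or without a PPS, had 3.73, 3.90 and 3.89 nt per kb.

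The nucleases split this result. With dsRNase calls alone 20 enzyme genes rose and 1 fell (24.8% and 4.36% of all genes), and with ssRNase calls alone 12 rose and 10 fell (12% and 21.5%). By strand, 9 of 24 plus-strand enzyme genes rose and 3 fell (14.2% and 22.4% of plus-strand genes), and 7 of 26 minus-strand ones rose and 1 fell (24.4% and 12.4%). Without the ssRNase calls of replicate 2, 16 rose and 2 fell (19.7% and 10.8% of all genes). By day 2, 14 rose and 5 fell (18.9% and 11.6% of all genes), but 1 rose and 6 fell without those calls. The share of all genes called higher dropped too, to 4.85%, and 13.3% were called lower. In the step from day 2 to day 4, 9 rose and 4 fell (10.4% and 15.6%).

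At both of these steps the nucleases and strands differed as well. With ssRNase calls alone 12 rose and 4 fell by day 2 (17.6% and 10.2% of all genes), then 2 rose and 12 fell (4.24% and 21.6%). With dsRNase calls alone 1 rose and 7 fell by day 2 (4.46% and 7.76%), then 20 rose and 0 fell (24.1% and 1.17%). On the plus strand 7 of 24 rose and 4 fell by day 2 (14.4% and 15.3%), then 5 rose and 2 fell (8.8% and 17%). On the minus strand 7 of 26 rose and 1 fell by day 2 (23.6% and 7.75%), then 4 rose and 2 fell (12% and 14.2%).

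Kmt5c had the densest intronic coverage of the enzyme genes at day 4. Its replicates had 0 and 45.6 covered nt per kb at day 0, 167 and 137 at day 2, and 289 and 259 at day 4, again in the order of the days without overlap. Of this, an intron of 2535 nt (intron 6 of 8 in the transcript with the longest coding sequence) took 45, 413 and 886 nt at the 3 days. The sequence printed above lies in it. The Kmt5c coding sequence went from 19.2% to 35.6%, and its 3′ UTR from 7.42% in both replicates to 52.0% and 42.1%, so exons and introns moved together.

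Hdac7 moved the other way in its introns too. Its replicates had 71.1 and 55.9 covered nt per kb at day 0, 23.7 and 22.4 at day 2, and 10.1 and 6.28 at day 4. Intron 1 of 24, which is 32477 nt long, held 3146, 1160 and 514 covered nt, and its PPSs numbered 47, 17 and 8. Of the 99 regions of Hdac7 formed by joining PPSs of the 3 days, 58 were seen at day 0 alone. The coding sequence fell from 26.1% and 23.1% to 11.3% and 8.68%. The 5′ UTR had 23% and 12.7% at day 0 and 0 on both later days, and the 3′ UTR had 3.06% and 13.5% at day 0 and 10.5% in both replicates at day 4.

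Hdac5 rose where Hdac7 fell. Its introns had 8.83 and 6.90 covered nt per kb at day 0, 12.1 and 21.8 at day 2, and 38.8 and 30.8 at day 4, a 5.58-fold rise of the pooled value. Intron 2 of 28 held 82, 361 and 629 covered nt. The intronic site printed above was called at all days, in 9 of the 12 call sets. Among the methyltransferases, Kmt2d went from 24.9 and 18.1 to 56.9 and 57.2 nt per kb, Kmt2e from 24.9 and 24.8 to 59.4 and 65.3, and Kmt2c from 9.36 and 9.02 to 22.96 and 26.5. Intron 1 of these genes had 259 and 540 covered nt at days 0 and 4 in Kmt2d, 798 and 1764 in Kmt2e, and 1107 and 2076 in Kmt2c. Kmt2a, Kdm3a and Kdm6a rose 4.53-fold, 3.85-fold and 3.16-fold.

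Kdm1a, a demethylase that works with corepressors in erythroid cells, rose 5.88-fold, from 3 and 2.404 to 10.8 and 11.4 nt per kb, while its exonic coverage was 12.9% and 13.3% at days 0 and 4. Kdm4b rose 5.57-fold, Setd2 3.56-fold, Kdm4c 2.47-fold, Kat6a 2.16-fold, Setd1b 2.03-fold and Kmt5b 1.51-fold. Hdac3 went from 0 to 159 covered nt. The rises of Setd1b and Kmt5b turned to -33 and -135 nt without day 4 replicate 1, which sets 1 day 4 replicate against the union of 2 at day 0. Neither they nor the rise of Hdac3 were called with either day 4 replicate left out, and the rise of Kat6a was 89 nt and not called without day 4 replicate 2. Besides Hdac7, intronic coverage fell for Kdm5b (1721 to 948 nt), Kmt5a (381 to 0) and Kat14 (118 to 0), the last of which shares 693 exonic nt with another gene. The change of Kdm5b was -237 nt and not called without day 0 replicate 2, and that of Kat14 was lost without either day 0 replicate. Setdb1 and Setd5, whose introns were well covered at day 0 (75.5 and 76.2 nt per kb), had 60.9 and 65.2 at day 4 and were not called.

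**Figure D4:**
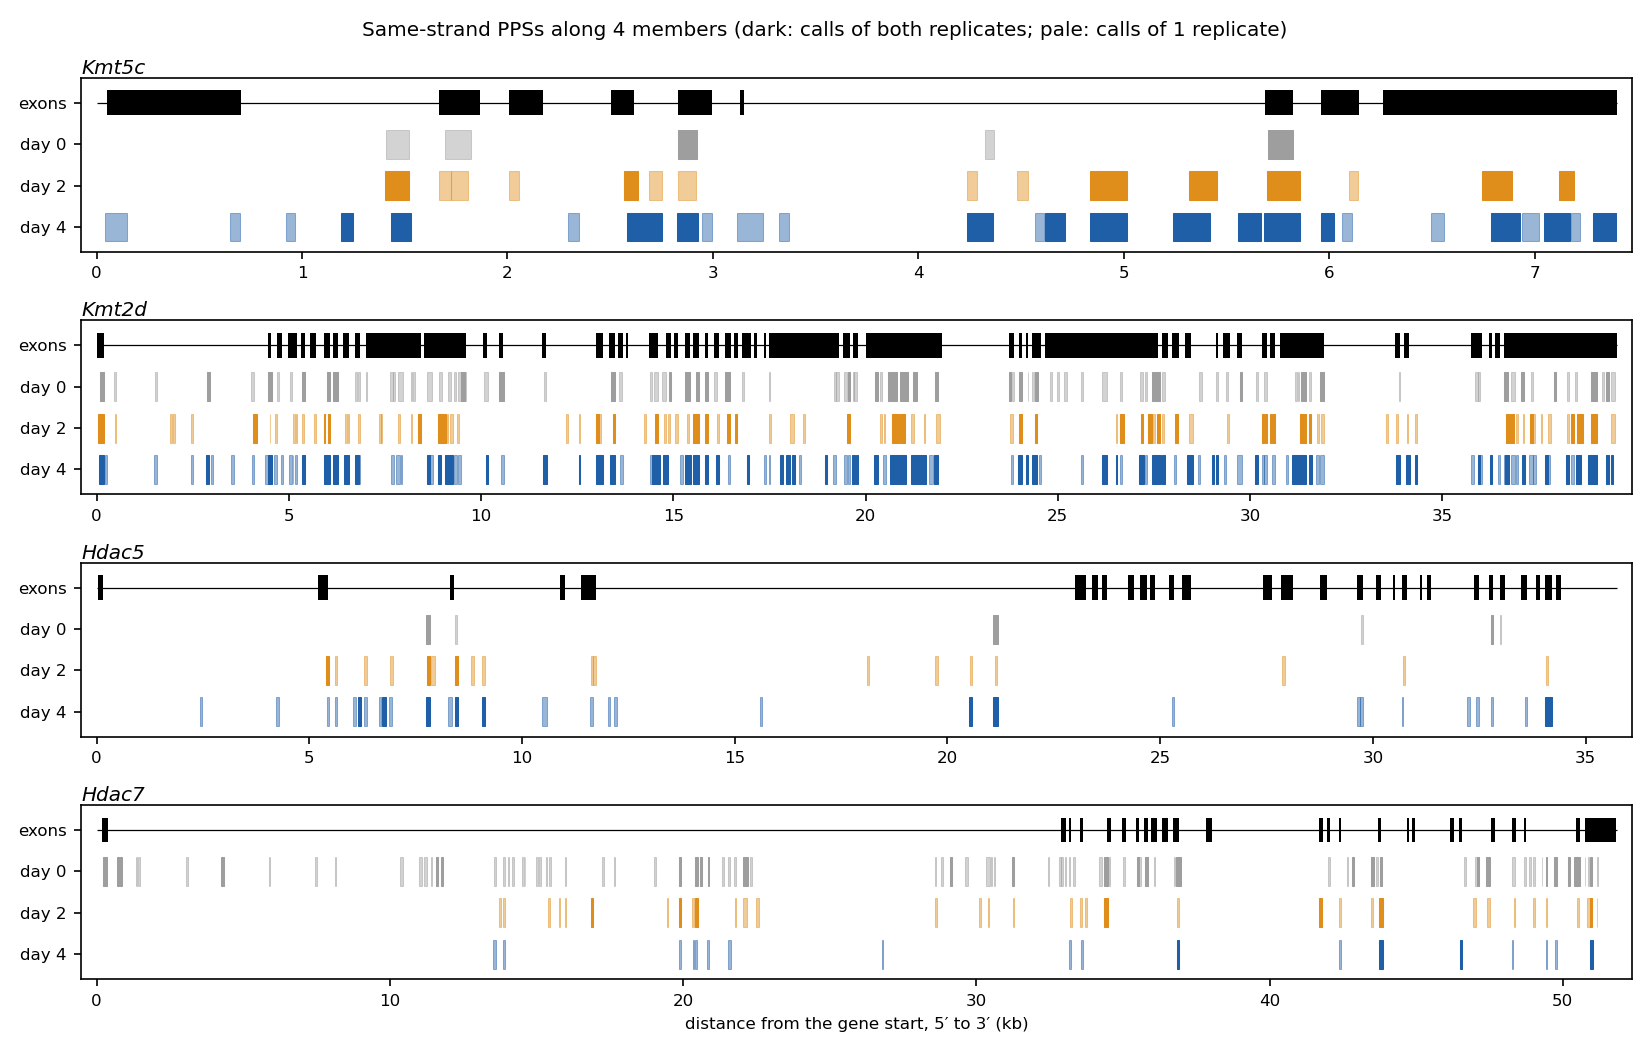
Maps of Kmt5c, Kmt2d, Hdac5 and Hdac7, drawn from the 5′ to the 3′ end, with exons above and PPSs of day 0, day 2 and day 4 in rows (horizontal axis, distance from the gene start in kb). Kmt5c gains PPSs (5, 15 and 26 at days 0, 2 and 4), and Hdac7 loses them, mainly in intron 1 (86, 35 and 18 in the whole gene).

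Within mRNAs, coverage was compared between regions by pooling nt over the genes of a family. For methylation enzymes, coding sequence was covered over 22.0%, 17.2% and 26.3% at days 0, 2 and 4, with replicates of 16.1% and 16.0% at day 0 and 21.4% and 19.6% at day 4. Their 3′ UTRs were at 10.6%, 8.64% and 14.7% and their 5′ UTRs at 14.1%, 13.9% and 17.1%. For acetylation enzymes, coding sequence was at 11.3%, 11.3% and 12.2%, while 5′ UTRs went from 13.2% to 8.47% and 6.46%. The replicates of that 5′ UTR value were 9.53% and 8.73% at day 0 and 5.06% and 4.78% at day 4. The 9550 protein-coding genes with an exonic PPS had 14.4%, 12.3% and 14.7% in coding sequence, 7.13%, 5.73% and 8.39% in 3′ UTRs, and 7.97%, 7.90% and 6.62% in 5′ UTRs. The family sums also hold the members without a PPS. These sums weigh long genes more, and Kmt2c and Kmt2d are among the longest.

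**Figure D5:**
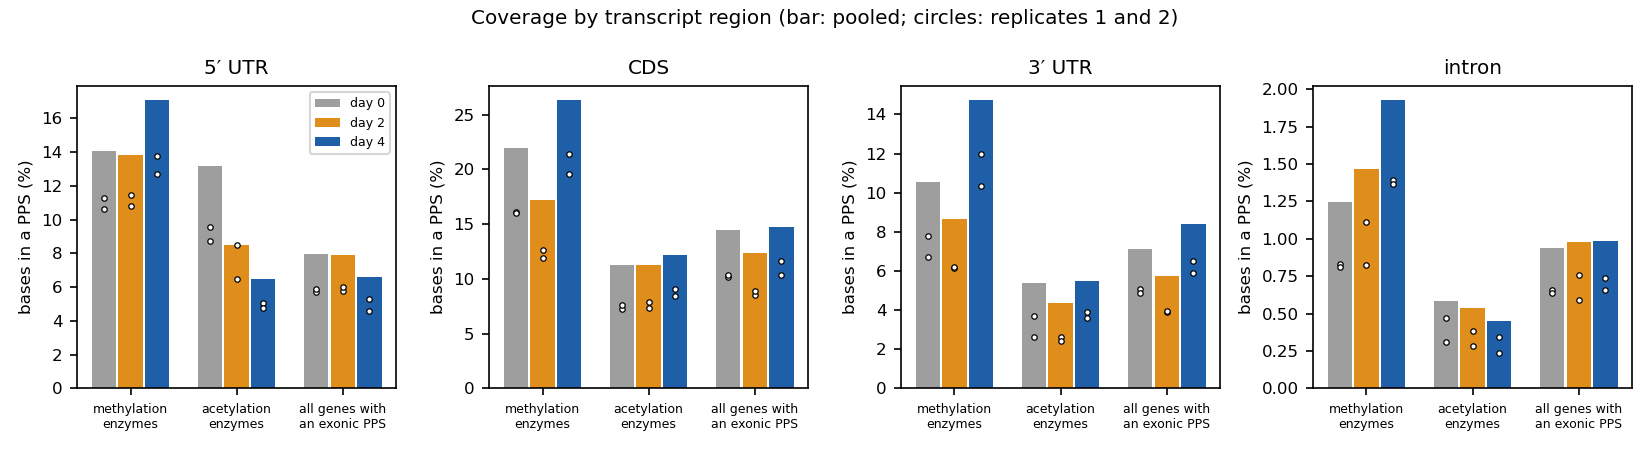
Share of nt covered by PPSs (vertical axis, %) in 5′ UTRs, coding sequence, 3′ UTRs and introns at days 0, 2 and 4. The sets are methylation enzymes, acetylation enzymes and all protein-coding genes with an exonic PPS. Bars are pooled values and circles the 2 replicates. Coding sequence of methylation enzymes is at 26.3% at day 4, against 12.2% for acetylation enzymes and 14.7% for all genes with an exonic PPS.

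The enzyme genes held 1307, 1291 and 1552 PPSs at days 0, 2 and 4, of which 1009, 1004 and 1285 were in methylation enzymes and 298, 287 and 267 in acetylation enzymes. The median PPS was 61, 58 and 63 nt long. Of the PPSs, 48.8%, 44.1% and 45.7% touched coding sequence, against 38.4%, 34.4% and 36.0% for all genes. Another 41.5%, 48.5% and 47.1% touched an intron, against 48.7%, 53.5% and 50.2%. PPSs that spanned an exon and an adjoining intron made up 5.59%, 5.96% and 8.25%, against 5.97%, 5.23% and 5.92% of those of all genes. Calls of both replicates stood behind 29.5%, 28.1% and 37.7%, against 30.2%, 30.2% and 35.2% for all genes. Calls of both nucleases stood behind 20.4%, 15.6% and 28.2%, against 18.2%, 16.8% and 23.8%.

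Sites were followed from day to day to see how many were kept. Joined by an overlap of 1 nt, the PPSs formed 2503 regions, of which 409 (16.3%) were seen at all days, 408 at day 0 alone, 433 at day 2 alone and 566 at day 4 alone. Such regions were not formed for all genes, so these shares have no background beside them. In methylation enzymes 18.4% were seen at all days and 13.7% at day 0 alone, and in acetylation enzymes 9.74% and 24.96%, a difference that was not tested. Hdac7 alone gave 58 of the 146 acetylation enzyme regions seen only at day 0. Of the day 0 PPSs of the enzyme genes 56.1% were overlapped by a day 4 PPS, against 46.3% for all genes, and of the day 4 PPSs 46.9% were overlapped at day 0, against 43.7%. With day 2 the shares did not all lie above those of all genes. Day 2 PPSs overlapped 44.5% of the day 0 PPSs (44.4% for all genes) and 43.1% of the day 4 PPSs (45.1%). Of the day 2 PPSs, 45.4% were overlapped at day 0 (43.9%) and 53.0% at day 4 (47.3%).

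A few sites were called almost everywhere. Regions with calls in all 12 sets numbered 2, in Kmt2d (chr15:98850093-98850618) and in Kdm5c (chrX:152233254-152233641), and both are exonic. Regions in Kdm4a (chr4:118148685-118148871) and Kmt2c (chr5:25310164-25310372) were called in 11. The Kmt2d region holds the highest-scoring exonic PPSs of the enzyme genes at day 0 (score 69.46, 228 nt, printed above) and day 4 (score 99.86, chr15:98850161-98850563). The score is the enrichment value given by the authors' peak caller, and merged PPSs appear to carry the sum of their calls. At day 2 the leader was also in Kmt2d, at the border of its 5′ UTR and an intron (chr15:98870999-98871158, score 61.16). The highest-scoring intronic PPSs were in Hdac8 at day 0 (chrX:102300103-102300521, intron 10 of 10, score 54.39), Setdb1 at day 2 (53.92) and Kmt2e at day 4 (55.94).

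The Setdb1 and Kmt2e intronic sites, printed above, share the 15-base word AGTGGAATGAAAGAA on the sense strand. It was present in 6 of the 1621 intronic PPSs of the enzyme genes (0.370%), which are these 2 sites on each of the 3 days, and in no other of the 144408 intronic PPSs of all genes (0.00415%). The antisense word was in none. The word was chosen because the sequences share it, so its count is a description. PPSs wholly within introns had a median GC content of 43.1%, 43.2% and 41.4% at days 0, 2 and 4 in enzyme genes and 44.2%, 45.3% and 44.0% in all genes, and the whole introns of the enzyme genes had 43.7%.

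Other genes of the same pathways were read from lists of histone-modifying enzymes named otherwise and of subunits of their complexes. Of 31 other enzymes with an exonic PPS, 6 rose and 2 fell from day 0 to day 4 (19.4% and 6.45%), with a median change of 0.692 points. Of all genes with an exonic PPS, 15.3% rose and 14.6% fell. Sirt7, a nuclear sirtuin deacetylase, went from 2.95% to 14.3%, Ncoa1, a coactivator with acetyltransferase activity, from 3.10% to 14.1%, and Nsd2, a methyltransferase of gene bodies, from 20.5% to 11.6%. Of 39 complex subunits 9 rose and 6 fell (23.1% and 15.4%), with a median of -0.717 points. In introns, 13.9% of the subunits with an intronic PPS rose and 25% fell, against 19.2% and 17.5% of all genes. Mta1, a subunit of the NuRD deacetylase complex, went from 14.6% to 28.7%, and the Sin3 complex gave both a rise and a fall. Its scaffold Sin3b went from 3.92% to 17.5%, and its subunit Sap30 from 13.8% to 0.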

How the data were processed

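Protein interaction profile sequencing (PIP-seq) was measured in 24 libraries of MEL cells, grouped by the sample titles. The authors trimmed reads with cutadapt 1.2.1, collapsed them, aligned them to mm10 with TopHat2 2.0.10 keeping up to 10 hits, collapsed PCR duplicates, and called PPSs with a modified CSAR package (Poisson test, FDR 5%). They merged the calls of a day, and the deposited score in each list is their caller's enrichment value, whose scaling between libraries is not given in the sources used here. Deposited lists hold no read depth, so no interval covers it. Merging joins neighbouring calls, so the coordinates of a single call are lost and each replicate's coverage can be overstated.

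PPSs of 20 to 40 nt were left out. Exonic coverage used the union of a gene's exons and intronic coverage its span less those exons, both on the gene's strand. Call sets of a day and nuclease or replicate were taken from the name field, and changes are given over the 4 pairs of replicates, since replicate numbers are not stated to match between days. Exonic calls needed 5 points and intronic calls 1.5-fold and 100 nt, with the same sign in all pairs. No test was run. Of the cell type markers examined, 2 are not reported here. PPS classes were counted greedily, so 1 PPS can count in several.

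The enzyme genes, the lists and the rules were chosen with earlier results of these data known. Named genes were, per role, every called member, the 3 with the largest exonic change, the 3 with the highest mean exonic coverage, the 3 with the largest intronic change per kb and those without a PPS, together with the 3 largest changes of each related list and the highest-scoring exonic and intronic PPS per day. Alternatives were PPSs of all lengths, calls of both replicates, a score of 10 or more, equal list sizes, each nuclease alone, the transcript with the longest coding sequence, shared positions left out, call limits of 2 and 10 points, and each replicate left out. The alternative without ssRNase replicate 2 was added after seeing the data.

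The calculation was tested on simulated data: of 200 genes with a planted PPS among 21938, 200 had the planted coverage change and 200 the intended call. Python 3.11.15, numpy 2.4.6, pandas 2.3.3, matplotlib 3.10.9 and bedtools 2.31.1 were used with GENCODE M21.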

Additional observations from a re-analysis of the deposited data

Results flagged for a closer look

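In 6 cases the nucleases moved in opposite directions in every pair of replicates, and these differences were not tested. The exonic coverage of Setd1a from day 0 to day 4 changed by -9.07 points with ssRNase calls and by 5.89 with dsRNase calls, which is 14.95 points more with dsRNase. The exonic coverage of Hdac1 from day 0 to day 2 changed by 3.80 points with ssRNase calls and by -10.3 with dsRNase calls, a difference of -14.08 points. For Hdac8 over the same days the changes were 2.09 and -2.40 points, a difference of -4.48. In introns from day 0 to day 4, Kdm5a changed by -403 nt with ssRNase calls and by 498 with dsRNase calls, a difference of 901 nt. Kdm5c changed by -813 and 650 nt, a difference of 1463, and Setd5 by -1467 and 1604 nt, a difference of 3071. All 3 of these intronic cases lie on genes of the plus strand, as does Setd1a, and their ssRNase falls go in the direction of the strand imbalance of the ssRNase replicates 2, whose part was not tested.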

How the results depend on the processing

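No paired analysis was possible because replicate numbers are not stated to match between days and the results come from no test. Leaving out 1 replicate sets the union of 1 replicate against that of 2, which by construction lowers the coverage of that day.

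Of the 53 calls of single genes, 47 kept their call with PPSs of all lengths, 49 with equal list sizes, 49 with the longest coding transcript, 53 with shared positions left out, 47 without ssRNase replicate 2, 37 with dsRNase alone, 31 with ssRNase alone, 30 with a score of 10 or more and 28 with calls of both replicates required. Coverage of genes with few PPSs is limited by call set size, from 14832 to 73952 PPSs.

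Exonic calls from day 0 to day 2 (15 genes) numbered 6 at a limit of 10 points, 23 at 2 points, and 6 each with calls of both replicates, a score of 10 or more, and ssRNase alone. From day 0 to day 4 (18 genes) they numbered 8 at 10 points and 34 at 2 points. From day 2 to day 4 (19 genes) they numbered 8 with ssRNase alone and from 12 to 29 with 1 replicate left out. Intronic calls from day 0 to day 2 (19 genes) numbered 8 with dsRNase alone and 7 without ssRNase replicate 2. The cause was not tested. The counts of this paragraph join rises and falls. Shares of all genes stand above for each nuclease alone and without ssRNase replicate 2. They are not given for the other settings, so those counts have no background beside them.

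The median exonic change of acetylation enzymes from day 0 to day 4 (-2.27 points) was -1.64 with all lengths, 0 with both replicates required, -0.399 with a score of 10 or more, -0.118 with ssRNase alone, 0.208 with dsRNase alone, -3.05 with the longest coding transcript, -0.974 without ssRNase replicate 2, and from -4.09 to 1.75 with 1 replicate left out. That of methylation enzymes (2.12 points) was 3.05 with both replicates required, 3.31 with the longest coding transcript and from -1.85 to 5.96 with 1 replicate left out.

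Summed intronic coverage of the enzyme genes at days 0, 2 and 4 (9.05, 9.90 and 11.7 nt per kb) was 2.91, 2.91 and 4.67 with both replicates required, 3.81, 4.12 and 5.73 with a score of 10 or more, 2.50, 1.84 and 7.06 with dsRNase alone, 11.2, 11.7 and 14.2 with the longest coding transcript, and 7.10, 5.55 and 9.81 without ssRNase replicate 2. It was 11.7 and 12.9 at days 2 and 4 with all lengths, 8.09 and 8.19 at days 0 and 4 with ssRNase alone, and 10.6 at day 4 with equal list sizes. With 1 replicate left out it ran from 5.53 to 6.44 at day 0, 5.45 to 7.36 at day 2 and 7.82 to 8.51 at day 4. Day 4 exceeded day 0 in every setting run on both days together.

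Single genes changed sign in these cases. Exonic changes over the 4 days were 0.331 points for Hdac8 with both replicates required and -0.642 for Kmt2e with ssRNase alone, and with 1 replicate left out they ran from -9.54 to 1.58 for Kat2a and from -0.386 to 15.2 for Kmt2b. Intronic changes were 165 nt for Kdm5b with dsRNase alone, and with 1 replicate left out ran from -135 to 470 nt for Kmt5b and from -33 to 342 nt for Setd1b. For the exonic change by day 2, Setdb1 had 1.007 points with a score of 10 or more. With 1 replicate left out, that change ran from -13.3 to 1.007 for Setdb1, from -12.2 to 4.49 for Kmt2d, from -11.7 to 2.94 for Kmt2a and from -11.8 to 0.679 for Setd2.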
